A study of Glycine max with 12 samples.

Results

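Le1 is the soybean gene for the seed lectin, a carbohydrate-binding protein of the legume lectin family, and it is represented here by the model Glyma.02G012600.1 on chromosome 2. It was chosen by its model number and followed across all 12 RNA-Seq libraries of the series, as 1 of the 56044 gene models with a value in each library. The series holds 1 library per condition and no replicates, so every comparison below is between 2 libraries and carries no p-value. Of the 12 libraries, 11 came from Williams, a yellow-seeded cultivar, and 1 came from the seed coat of Williams 55, called W55, a black-seeded line with the i mutation. The Williams libraries were made from cotyledons of 5-6 mg immature seed, of 200-300 mg yellow desiccating seed and of mature dry seed, from embryo axes of 200-300 mg and of 300-400 mg desiccating seed, from seed coats of 5-6 mg, 25-50 mg, 200-300 mg desiccating and mature dry seed, from 5 day seedling roots and from furled trifoliate leaves of adult plants. Seeds were dissected by hand, all plants were grown in a greenhouse, and the W55 seed coat was taken at 25-50 mg only. Cotyledons of seed between 6 mg and 200 mg, a span that includes their filling with storage products, are not analysed here. Neither are seed coats of seed between 50 mg and 200 mg.

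Seed lectins of legumes are made on the rough endoplasmic reticulum, carry N-linked glycans and are stored in the protein bodies of the cotyledon together with the storage globulins. In soybean the protein is known as soybean agglutinin, and it binds galactose and N-acetylgalactosamine. Storage globulins are of the 11S type (glycinins) and the 7S type (beta-conglycinins), and oleosins are the coat proteins of seed oil bodies. The study used Le1 for another purpose, as the reference gene of known copy number in digital PCR of genomic DNA. The annotation deposited with the values gives the model only a legume lectin domain, although its descriptive line, taken from its best Arabidopsis match AT5G10530, calls it a lectin protein kinase.

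The values are RPKM, that is, hits scaled by the length of the model and by the total of alignments in the library. Library totals recovered from the values ranged from 14.7 M alignments in leaf to 187 M in root, with a median of 105.4 M, and the length recovered for the Le1 model was 2152 nt. Intervals on levels are exact Poisson 95% intervals from the hits, intervals on ratios are exact Clopper-Pearson 95% intervals, and both cover counting error only. Where a library held 0 hits, 3 hits served as a fixed reference level, which is not a 95% bound. In 3 libraries a large part of the hits fell in 508 unannotated models of chromosome 13, namely 58.3% of those of the 5-6 mg seed coat, 31.7% for the 5-6 mg cotyledon and 28.8% for dry seed coat, against 0.971% to 8.49% in the other libraries. Leaving these models out of the library total raised the RPKM of every other model by 2.40, 1.46 and 1.40 times in those 3 libraries.

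Le1 had hits in 10 of the 12 libraries and reached 1 RPKM in 6 of them. It was highest in the desiccating cotyledon of 200-300 mg seed, at 34.5 RPKM (33.2 to 35.8, from 2877 hits), where 97.3% of all models had lower values. The dry cotyledon followed at 22.8 RPKM (22.2 to 23.4, from 5577 hits), and the cotyledon of 5-6 mg seed was at 5.19 RPKM (4.97 to 5.42, from 2046 hits). All 3 cotyledon libraries therefore stood above every other library on the RPKM scale, and their intervals did not overlap.

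The embryo axes held less. Le1 was at 3.90 RPKM (3.63 to 4.18, from 792 hits) in the axis of 300-400 mg seed and at 1.64 RPKM (1.47 to 1.82, from 346 hits) in the axis of 200-300 mg seed. Among seed coats, the 25-50 mg stage was highest, at 1.64 RPKM in Williams (1.28 to 2.07, from 70 hits) and 0.856 RPKM in W55 (0.622 to 1.15, from 44 hits). The Williams seed coat of this stage could not be told from the 200-300 mg axis, since their intervals overlap over nearly their whole length.

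The remaining libraries were low or had no hit. The 200-300 mg seed coat was at 0.111 RPKM (0.0733 to 0.162, from 27 hits), the dry seed coat at 0.118 RPKM (0.0788 to 0.169, from 29 hits) and the root at 0.0843 RPKM (0.0584 to 0.118, from 34 hits). These 3 values do not differ beyond counting error. No hit was found in the 5-6 mg seed coat, which allows a level of up to 0.00814 RPKM, or in leaf, the shallowest library, which allows up to 0.0947 RPKM. The leaf value therefore does not separate leaf from root, whereas the 5-6 mg seed coat limit lies below the lower bound in root.

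**Figure D1:**
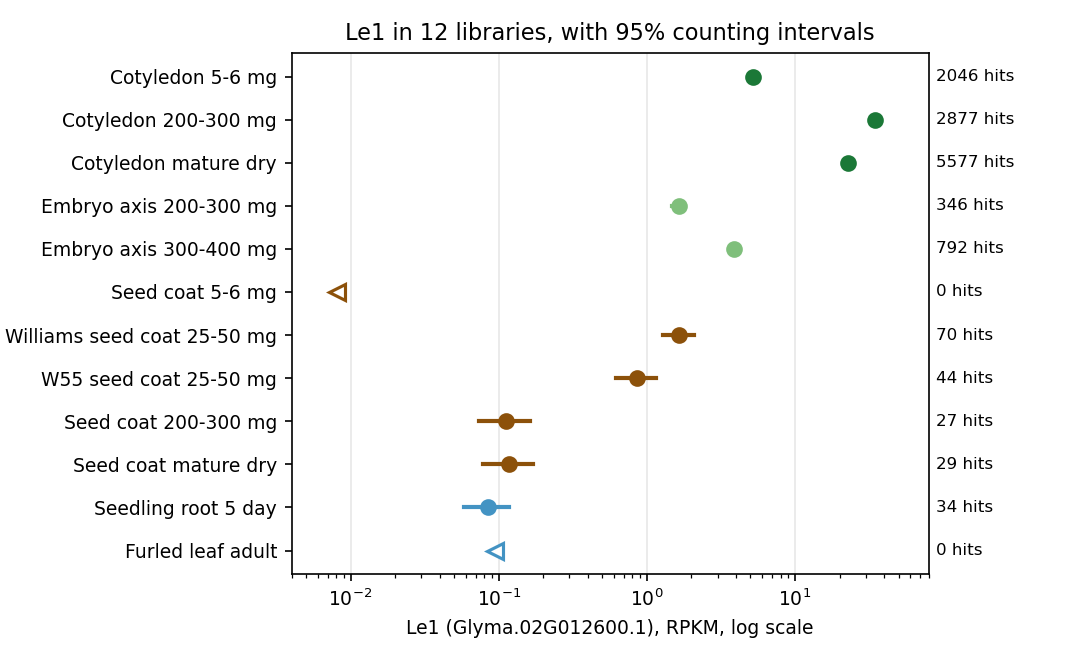
Level of Le1 in each library on a logarithmic RPKM axis; filled points are the deposited values, bars are 95% counting intervals, open triangles mark the level of 3 hits in libraries with 0 hits, and colours mark cotyledon, axis, seed coat and vegetative tissue. The cotyledons reach 34.5 RPKM, while the 200-300 mg and dry seed coats and the root all sit between 0.0843 and 0.118 RPKM.

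The order of the levels depended on the scaling in places. When each library was rescaled to a constant sum (TPM), the axis of 300-400 mg seed, at 10.5 TPM, stood above the 5-6 mg cotyledon, at 8.37 TPM, and the Williams seed coat of 25-50 mg seed, at 4.71 TPM, above the 200-300 mg axis, at 4.47 TPM. The 5-6 mg cotyledon is one of the libraries with many chromosome 13 hits, and leaving those models out of the total gave 7.59 RPKM there against 4.26 RPKM in that axis.

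The first question was how Le1 changed as the cotyledon passed from its immature to its desiccating stage. Le1 was 6.65-fold higher (6.28 to 7.04) in the 200-300 mg cotyledon than in the 5-6 mg cotyledon, a difference of +2.71 on the log2(RPKM + 0.1) scale. With at least 1 RPKM in either library, 20.2% of all models were 4-fold or more higher and 24.9% lower at the later stage, so a change of this size was common between these libraries. The storage globulins, the list of 21 cupin models with Arabidopsis storage protein matches, moved much further. All 16 members with at least 1 RPKM were 4-fold or more higher, with a median log2 difference of +9.81 against +0.03 over all models. Only 3 of these 16 reached 1 RPKM at 5-6 mg. The others were counted only through the later library, where they are higher, which favours such a count. The 13 oleosins were all 4-fold or more higher, with a median of +4.75, and summed to 60.3 RPKM at 5-6 mg. Le1 differed from most globulins in its early level, as only 3 of the 21 reached 1 RPKM at 5-6 mg. Its 5.19 RPKM equalled 50.3% of their summed 10.3 RPKM there, and at 200-300 mg it equalled 0.855% of their 4034 RPKM. The similar pair Glyma.20G148300 and Glyma.20G148400 was close to Le1, at 3.68 and 3.66 RPKM at 5-6 mg and 45.5 and 45.0 RPKM at 200-300 mg. Reads shared by the pair can count in both, which affects the early sum.

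From the desiccating to the mature dry seed, Le1 was 1.51-fold lower (1.45 to 1.58) in the cotyledon, a log2 difference of -0.60. This stayed inside the 4-fold limit, which 1.73% of models passed in the lower direction, and 22.0% of models lay further down than Le1. The interval excludes no change for these 2 libraries, but without replicates it says nothing of other seed lots. The 17 globulins measured here had a median log2 difference of -0.28 and the 13 oleosins -0.24, and none of either list passed the 4-fold limit.

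The axis and the cotyledon of the same desiccating seed stage could be compared directly. Le1 was 21.0-fold lower (18.8 to 23.6) in the 200-300 mg axis than in the cotyledon, at -4.31 on the log2 scale. In this comparison 2.71% of models were 4-fold or more lower in the axis and 3.04% higher, and 68 of 23490 models lay further down than Le1. With the pseudocount of 0.1 RPKM, models at low levels in the cotyledon could not lie that far down. In bulk tissue, fewer cells with the transcript and less transcript per cell cannot be told apart. Of 16 globulins measured, 11 were at least 4-fold lower and 7 at least 20-fold lower in the axis on the log2(RPKM + 0.1) scale, and these 7 also lay further down than Le1. The 4 at least 100-fold lower on that scale were the glycinin-type models Glyma.03G163500, at 0.416 against 866 RPKM, Glyma.19G164900, at 0.0829 against 186 RPKM, Glyma.10G037100, at 1.50 against 235 RPKM, and Glyma.13G123500, at 0.139 against 83.8 RPKM. By contrast Glyma.U020300, a cupin matched to AT2G28490, was at 386 RPKM in the axis and 720 RPKM in the cotyledon, and no oleosin passed the 4-fold limit. Le1 thus lay between the globulins that were lowest in the axis and those within 4-fold in both embryo parts.

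Between the axes of 200-300 mg and 300-400 mg seed, Le1 was 2.38-fold higher (2.09 to 2.70) in the heavier seed, a difference of +1.20 in log2 units. It stayed inside the 4-fold limit, which 0.124% of models passed in this direction and 1.14% in the other, and 1.08% of models lay above Le1. Among 14 globulins measured, 3 passed the limit and the median difference was +1.34, against +0.02 over all models. The glycinin-type model Glyma.10G037100 was at 22.1 RPKM in the heavier axis and 1.50 RPKM in the lighter, and Glyma.03G163500 at 2.88 and 0.416 RPKM. Oleosins had a median of +0.25.

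The seed coat is maternal tissue, and its comparison with the cotyledon asks how far Le1 was confined to the embryo. In 200-300 mg seed Le1 was 310-fold lower (213 to 471) in the seed coat than in the cotyledon, with a log2 difference of -7.35. Here 3.52% of models were 4-fold or more lower and 19.6% higher in the seed coat, and 12 of 27303 models, or 0.0440%, lay further down than Le1. In mature dry seed Le1 was 193-fold lower (134 to 289) in the seed coat, at -6.71, where 9.65% of models were 4-fold or more lower and 4.53% higher, and 23 of 21341 models lay further down. With the pseudocount of 0.1 RPKM, only models well above it in the cotyledon could lie so far down in either seed stage. Both counts thus depend on the cotyledon level as well as on the seed coat. The dry seed coat library was not identified by the seed coat markers used here. The 17 models matched to Arabidopsis seed coat genes, which include proanthocyanidin genes and ovule identity factors, summed to 155 to 716 RPKM in the other seed coats and to 0.553 RPKM in the dry one, with none at 1 RPKM. They summed to at most 9.46 RPKM in cotyledons and axes. Their sum was already lower in the 200-300 mg seed coat, at 155 RPKM, than in the Williams 25-50 mg seed coat, at 716 RPKM. In the dry cotyledon they summed to 1.49 RPKM, also with none at 1 RPKM, so they do not tell the dry libraries apart. Transcripts outside these markers did set this library apart from the dry cotyledon. The Kunitz inhibitors summed to 1398 RPKM against 81.1 RPKM, though also to 371 RPKM in root and 473 RPKM in leaf. Glyma.02G042500, a chitinase match at 875 RPKM in the 200-300 mg seed coat, was at 1356 RPKM against 0.918 RPKM. Of the 21 measured models with lectin-like domains outside the legume family, which include it, 3 were 4-fold or more higher than in the dry cotyledon and 4 lower. The library is therefore called the library labelled dry seed coat in what follows wherever a direction rests on it.

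Other embryo transcripts were not as low in these seed coats. The summed globulins were at 1011 RPKM in the 200-300 mg seed coat, 25.1% of their 4034 RPKM in the cotyledon, and the summed oleosins at 315 RPKM, 12.5% of the cotyledon sum. Le1 stood at 0.323% of its cotyledon level. Of 17 globulins measured, the same 4 glycinin-type models named above were at least 100-fold lower in the seed coat, and these were also the 4 members that lay further down than Le1. For Glyma.03G163500 the levels were 0.683 RPKM in this seed coat and 866 RPKM in the cotyledon. For Glyma.U020300 they were 394 and 720 RPKM, and for Glyma.10G246500, a 7S-type cupin, 278 and 415 RPKM. Another member, Glyma.19G164800, was 4-fold or more higher in the seed coat, at 34.2 against 0.701 RPKM, and was named after its values were seen. In the library labelled dry seed coat the globulins summed to 567 RPKM, 18.8% of the dry cotyledon, and the same 4 models were again at least 100-fold lower. The part that embryo tissue carried into these seed coats may have had in the 27 and 29 Le1 hits was not tested.

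**Figure D2:**
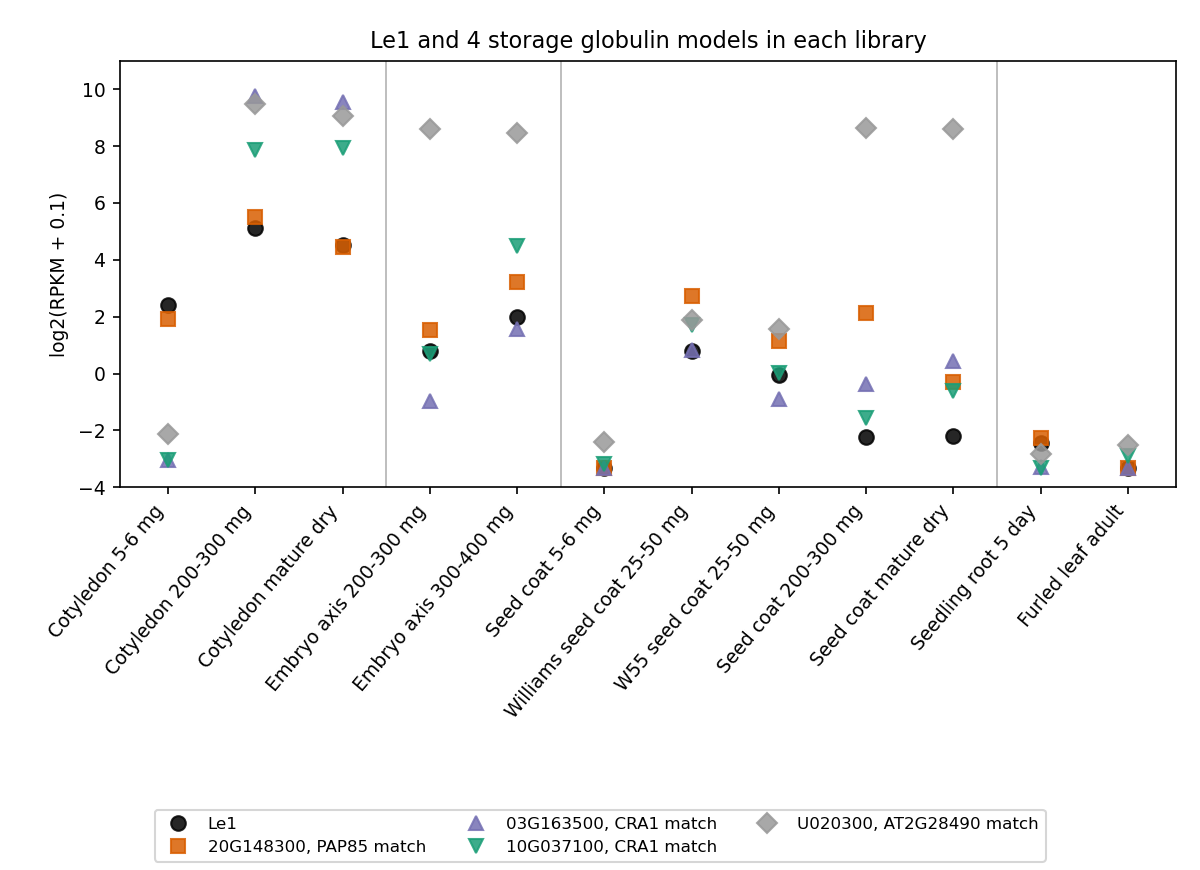
Le1 and 4 storage globulin models, on the log2(RPKM + 0.1) scale, in each library, with vertical lines between cotyledons, axes, seed coats and vegetative tissues. Le1 and the beta-conglycinin-type model Glyma.20G148300 lie close together in the cotyledons, the glycinin-type models are above Le1 in the 200-300 mg and dry cotyledons and far below it in the 5-6 mg cotyledon, and Glyma.U020300 stays at 353 to 720 RPKM in every desiccating or dry seed library.

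At 5-6 mg the seed coat had no Le1 hit and the cotyledon had 2046. Le1 was 637-fold lower in the seed coat when this library was set to 3 hits, and the lower 95% bound of the ratio from the hits was 518. The log2 difference was -5.72 with the pseudocount of 0.1 RPKM, and 16.9% of models were 4-fold or more lower and 7.47% higher in this seed coat, whose all-model median was -1.01. Leaving out the chromosome 13 models moved that median to -0.34 and the Le1 difference to -6.27. The globulins summed to 0.750 RPKM and the oleosins to 1.65 RPKM in the same seed coat, against 10.3 and 60.3 RPKM in the cotyledon.

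Within the Williams seed coat series, Le1 was at 0 hits, 70 hits, 27 hits and 29 hits from the youngest to the driest stage. The 25-50 mg seed coat was 201-fold higher than the 5-6 mg seed coat when the latter was set to 3 hits. The lower 95% bound of the ratio from the hits was 159. The log2 difference was +4.12, though +1.40 and inside the 4-fold limit with a pseudocount of 1 RPKM. Yet 34.8% of models were 4-fold or more higher and 1.22% lower in this comparison, whose median over all models was +1.62, and embryo genes were higher too: the globulins summed to 56.7 against 0.750 RPKM and the oleosins to 50.2 against 1.65 RPKM. All 16 globulins and 7 of 8 oleosins measured were 4-fold or more higher, while the seed coat markers summed to 716 and 657 RPKM. No member of either list reached 1 RPKM in the 5-6 mg seed coat. Each was thus counted only through the library where it was higher, which favours such counts. Whether Le1 came with embryo tissue in the 25-50 mg seed coat was not tested.

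The 200-300 mg seed coat was then 14.7-fold lower in Le1 (9.32 to 23.9) than the 25-50 mg seed coat, at -3.04, where 19.9% of models were 4-fold or more lower and 9.02% higher. With a pseudocount of 1 RPKM this difference was -1.25 and inside the limit. The globulins went the other way, from 56.7 to 1011 RPKM, with 8 of 16 measured 4-fold or more higher and 3 lower. The 25-50 mg seed coat also differs from the stages before and after it in sequencing machine, which cannot be told apart from the stage. From the 200-300 mg seed coat to the library labelled dry seed coat, Le1 did not differ beyond counting error, at 1.06-fold (0.605 to 1.86) and +0.04 on the log2 scale. The median over all models was -0.97 here, 1.15% of models were 4-fold or more higher and 26.5% lower, and in TPM the Le1 difference was -0.43, so no direction can be given.

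W55 carries the i mutation and arose in an isoline of Williams with introduced disease resistance, so the lines need not differ by that mutation alone. Both 25-50 mg seed coats were sequenced on the same type of machine. Le1 was at 0.856 RPKM from 44 hits in W55 and 1.64 RPKM from 70 hits in Williams, 1.91-fold lower (1.29 to 2.85) in W55, at -0.86. This was inside the 4-fold limit, passed in this direction by 0.461% of models and in the other by 0.227%, and 4.60% of models lay further down. The globulins moved the same way, with 14 of 16 measured members lower in W55 and 1 member past 4-fold. Their median was -1.63 and that of the oleosins +0.36, against +0.03 over all models. All 16 globulins reached 1 RPKM in Williams but only 8 in W55. Some were thus counted only through Williams, where they are higher, which favours a count of lower members. The glycinin-type model Glyma.10G037100 was at 0.917 RPKM in W55 and 3.15 RPKM in Williams, and the 7S-type model Glyma.20G148300 at 2.10 and 6.55 RPKM. The seed coat markers summed to 701 and 716 RPKM. With 1 library of each line, the line and the seed lot or dissection cannot be told apart, and the part of embryo tissue in this difference was not tested.

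Root and leaf were the vegetative tissues of the series, and both matched their labels on markers. The 53 light-harvesting and Rubisco small subunit models made up 7.82% of summed RPKM in leaf, and the 15 models matched to the CASP genes of the root endodermis summed to 50.7 RPKM in root and at most 1.43 RPKM elsewhere. Le1 had 34 hits in root and 0 in leaf, and no fold is given since 3 hits in the shallow leaf library would already stand at 0.0947 RPKM. The nominal log2 difference was +0.88, and 16.3% of models were 4-fold or more higher in root. The globulins summed to 2.51 RPKM in root and 1.72 RPKM in leaf.

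**Figure D3:**
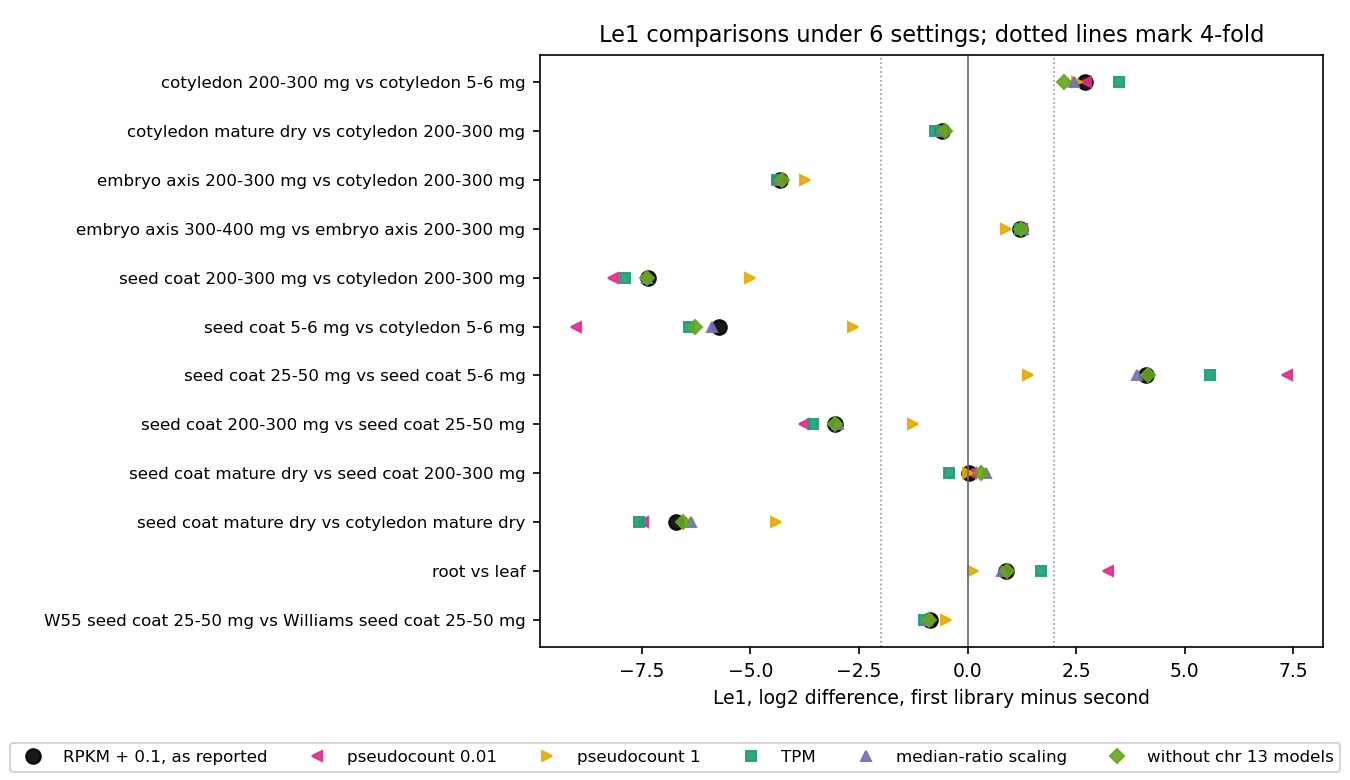
Log2 difference of Le1 in the 12 comparisons, first named library minus second, under the reported setting and 5 others; dotted lines mark 4-fold. As reported, 7 comparisons pass 4-fold, from -7.35 to +4.12, and differences that involve libraries near 0 RPKM spread most with the pseudocount.

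Le1 belongs to a family of 28 models with a legume lectin domain and no kinase domain. Of these, 10 reached 1 RPKM in some library, 14 were above 0 but under 1 RPKM in every library and 4 were at 0 throughout. Of those 10, Le1 alone was highest in a cotyledon library. The other 9 were highest in 25-50 mg seed coats (1 in Williams and 3 in W55), in root (2) or in leaf (3). Leaf and both 25-50 mg seed coats differ from all other libraries in sequencing machine, which cannot be told apart from tissue and stage here. The highest member in any library was Glyma.02G156800, at 108.8 RPKM in leaf and 23.0 RPKM in root, followed by Glyma.20G158700, at 43.4 RPKM in leaf, and Glyma.18G193900, at 35.2 RPKM in the Williams and 40.1 RPKM in the W55 seed coat of 25-50 mg seed.

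The makeup of the family therefore differed between libraries. Le1 accounted for 18.0% of the summed RPKM of the 28 models in the 5-6 mg cotyledon, 95.2% in that of 200-300 mg seed and 87.2% in that of dry seed. It made up 32.6% in the lighter and 51.4% in the heavier axis, and was the highest member in both. In the 25-50 mg seed coats it made up 1.96% in Williams and 0.907% in W55, in root 0.177%, and in leaf and the 5-6 mg seed coat none. The other 27 models together were at 23.7 RPKM in the 5-6 mg cotyledon and 1.73 RPKM in the 200-300 mg cotyledon. Of the 5 members with at least 1 RPKM in either of those cotyledons, Le1 alone was 4-fold or more higher at the later stage. The other 4 were 4-fold or more lower, beside 20.2% higher and 24.9% lower over all models. These 4 reached 1 RPKM only in the 5-6 mg cotyledon, where they are higher, which favours a count of lower members. Glyma.18G193900, for instance, went from 8.13 RPKM to 0.563 RPKM. As a read could be counted at up to 25 places, low values of members with close copies are uncertain.

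**Figure D4:**
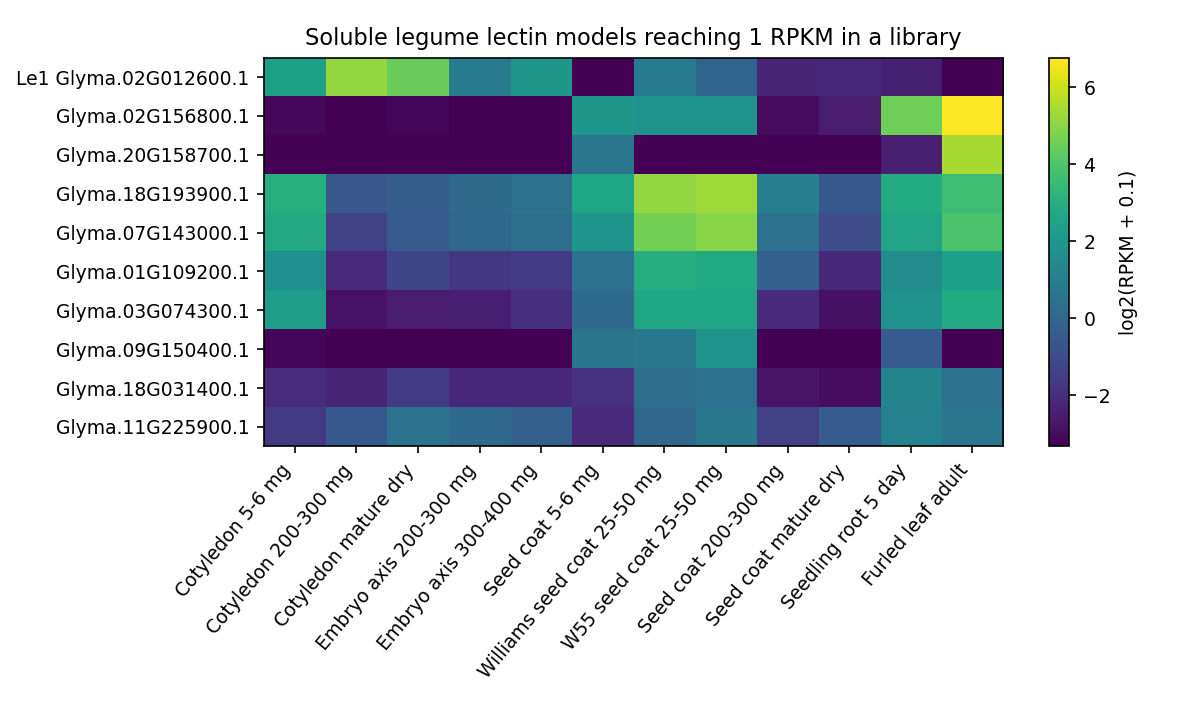
The 10 soluble legume lectin models that reached 1 RPKM, by library, with colour for log2(RPKM + 0.1). Le1, in the top row, is highest in the 200-300 mg cotyledon at 34.5 RPKM, while Glyma.02G156800 and Glyma.20G158700 are highest in leaf at 108.8 and 43.4 RPKM and Glyma.18G193900 in 25-50 mg seed coats.

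Models that follow Le1 across the libraries were ranked by Pearson's correlation of log2(RPKM + 0.1) over the 12 libraries, as a description, among 26274 models with at least 5 RPKM in some library. The median correlation was -0.06, and 70 models, or 0.266%, reached 0.8. The points share 12 libraries of unequal depth and of different tissues. The first 10 were Glyma.11G121200 (0.91), a methyltransferase-domain model; Glyma.20G148400 and Glyma.20G148300 (0.90 each), 7S-type cupins matched to PAP85; Glyma.17G107600 (0.88), with no annotation; Glyma.05G114500 (0.88), an alpha/beta-hydrolase; the RNA-binding models Glyma.14G068500 (0.88), Glyma.17G190500 (0.88) and Glyma.06G135500 (0.87); Glyma.13G186400 (0.86), matched to the transporter ZIFL1; and Glyma.11G194000 (0.86), a putative methyltransferase. Of these, 6 spanned under 4 log2 units, whereas Le1 spanned 8.43 and Glyma.20G148300 spanned 8.83.

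The cupin pair was near Le1 in range as well as in correlation. Glyma.20G148300 was at 3.68, 45.5 and 21.7 RPKM in the cotyledons from youngest to dry, where Le1 was at 5.19, 34.5 and 22.8 RPKM. Le1 per unit of this model, as a ratio of RPKM, was 1.41, 0.758 and 1.05 in the cotyledons and 0.591 and 0.426 in the axes. It was 0.0261 in the 200-300 mg seed coat and 0.166 in the library labelled dry seed coat, so the resemblance ended there. The pair itself had values within a few percent of each other in most libraries, and reads shared between the copies cannot be told apart. Without the 3 libraries rich in chromosome 13 hits, a setting chosen after seeing the data, only Glyma.17G107600 of the first 10 stayed among the first 10. The first place over those 9 libraries went to the glycinin-type model Glyma.10G037100 (0.98), the cupin pair was at places 51 and 52 (0.89), and Glyma.13G123500, another 11S-type model, was at place 4 (0.94).

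The genes next to Le1 on chromosome 2 had varied profiles. The nearest model on the lower-numbered side, Glyma.02G012500, which encodes a CP12 domain protein, was highest in the 200-300 mg cotyledon too, at 11.7 RPKM, with 5.36 RPKM in the dry cotyledon and 0.724 RPKM in the 5-6 mg cotyledon, and its correlation with Le1 was 0.50. It was also at 3.47 RPKM in the library labelled dry seed coat and at 2.04 RPKM in leaf. The nearest on the other side, Glyma.02G012700, matched to the seed maturation factor bZIP53 of Arabidopsis, was at 8.35 to 45.3 RPKM in all 12 libraries, lowest in the 200-300 mg axis and highest in the W55 seed coat, with a correlation of -0.13. Further out, Glyma.02G012300, a phosphotriesterase-like model, had the opposite course in cotyledons, with 17.2 RPKM at 5-6 mg and 0.0407 RPKM at 200-300 mg. Of the other members of the 5 models on each side, Glyma.02G012100, Glyma.02G012400, Glyma.02G012800 and Glyma.02G012900 had correlations of 0.18, -0.45, -0.44 and 0.35, and Glyma.02G012200, Glyma.02G013000 and Glyma.02G013100 did not reach 5 RPKM, so no correlation was computed. Of these, Glyma.02G012200 was highest in the same 2 libraries as Le1, at 3.33 RPKM in the 200-300 mg cotyledon and 2.20 RPKM in the dry cotyledon, with 0.150 RPKM in the 5-6 mg cotyledon.

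Seed regulators were looked at because B3 and LEC1-type factors of Arabidopsis drive storage genes in the embryo. The list of 23 models held matches to such factors and also to bZIP factors, among them bZIP53. Of these, 16 were measured between the 5-6 mg and 200-300 mg cotyledons. At the later stage 3 were 4-fold or more higher and 10 lower (20.2% and 24.9% over all models), with a median of -3.30. Glyma.17G005600, matched to L1L, was at 105.3 RPKM in the 5-6 mg cotyledon, where Le1 was already present. Glyma.18G176100, matched to ABI3, was at 23.7, 72.2 and 87.9 RPKM in the cotyledons and at 29.8 RPKM in the 200-300 mg seed coat, where Le1 was at 0.111 RPKM. Its correlation with Le1 over the 12 libraries was 0.69, and that of Glyma.08G357600, also matched to ABI3, was 0.70. These were the highest among the seed regulators compared. For Glyma.17G005600 the correlation was 0.25, and other members were negative, down to -0.41 for Glyma.10G013300.

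The secretory route, through which a stored glycoprotein passes, was represented by 43 models for chaperones, the oligosaccharyl transferase subunit STT3, vacuolar sorting receptors and vacuolar processing enzymes. Between the 5-6 mg and 200-300 mg cotyledons, 8 of 35 measured were 4-fold or more higher and 12 lower, with a median of -0.58, against 20.2% and 24.9% over all models. The highest members were Glyma.17G230700, matched to the gamma vacuolar processing enzyme, at 327 RPKM in the 200-300 mg seed coat, and Glyma.20G098400, matched to a calreticulin, at 324 RPKM in the Williams 25-50 mg seed coat. Both peaked in libraries where Le1 was at 0.111 and 1.64 RPKM.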

How the data were processed

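The authors used Bowtie 1 against the transcripts of all soybean gene models (Wm82.a2), with at most 3 mismatches and with reads kept at up to 25 places. They deposited RPKM for 56044 genes, each by its first splice variant. Libraries were not replicated, differed in machine (Genome Analyzer II for leaf and both 25-50 mg seed coats, HiSeq for the others) and read type, and strand is not stated, so antisense reads cannot be separated. Reads that align to several models count at each.

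Library totals were taken as the smallest number that made hits whole, within 0.001, for 48 models with listed cDNA lengths. Depth ranged from 14.7 to 187 M alignments. The Le1 length was the shortest that gave whole hits in every library with those totals. Differences are of log2(RPKM + 0.1), which understates changes of low models, and calls were made at 4-fold. The share of models that passed 4-fold, among those at 1 RPKM or more in at least 1 of the libraries compared, stands with the comparisons. With 1 library per condition, no p-value was computed. Gene lists came from Pfam domains and best Arabidopsis matches; a model was said to match a gene, not to be it. The named models were Le1, its 5 neighbours on each side and the 10 models most correlated with it. Also named were the 3 highest other soluble lectins and lectin receptor kinases, and the 2 highest members of the other lists. Some globulins, seed regulators and Kunitz inhibitors were named after their values were seen. Le1 and the lists were chosen with earlier results of these data known. Alternatives were pseudocounts of 0.01 and 1, TPM, median-ratio scaling, removal of the chromosome 13 models from the total, and other settings of the likeness. The procedures were tested on simulated data. Sequences and promoter motifs were not analysed here. Python 3.11.15, numpy 2.4.6, pandas 2.3.3, scipy 1.17.1 and matplotlib 3.10.9 were used.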

Additional observations from a re-analysis of the deposited data

Results flagged for a closer look

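From the desiccating to the mature dry stage, Le1 was lower in the cotyledon, at a log2 difference of -0.60, and at +0.04 (0.0436) between the 200-300 mg seed coat and the library labelled dry seed coat, nominally the opposite sign. No direction can be given for the seed coat, and the difference between the tissues was not tested, each stage and tissue being 1 library. The seed coat ratio, 1.06 (0.605 to 1.86), includes no change, rests on 27 and 29 hits, and turned to -0.43 in TPM.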

How the results depend on the processing

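Of the 7 comparisons past 4-fold, all 7 kept the call and direction with a pseudocount of 0.01, in TPM, with median-ratio scaling and without the chromosome 13 models. With a pseudocount of 1 RPKM 5 did, and the 2 lost were the 25-50 mg against the 5-6 mg seed coat, at 1.40, and the 200-300 mg against the 25-50 mg seed coat, at -1.25. With that pseudocount the 200-300 mg against the 5-6 mg cotyledon moved to 2.52, axis against cotyledon to -3.75, the heavier against the lighter axis to 0.89, seed coat against cotyledon to -5.00 at 200-300 mg, -2.63 at 5-6 mg and -4.41 in dry seed. With 0.01 RPKM the same 3 were at -8.15, -9.02 and -7.48, the 25-50 mg against the 5-6 mg seed coat at 7.36, the 200-300 mg against the 25-50 mg seed coat at -3.76, and root against leaf passed 4-fold at 3.24. Pseudocounts matter here by construction, since they are large beside values near 0.

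In TPM the 200-300 mg against the 5-6 mg cotyledon was at 3.49, dry against desiccating cotyledon at -0.75 and dry seed coat against dry cotyledon at -7.55. Median-ratio scaling gave 2.44 for the first of these. Removal of the chromosome 13 models gave 2.21 for it and -0.51 for the second. For the first of these the scalings moved the median over all models by 0.77, -0.26 and -0.49, and Le1 stayed 2.67 to 2.69 above that median. The largest such shifts, 1.25 in TPM and -1.25 with median-ratio scaling, were for the 25-50 mg against the 5-6 mg seed coat, where Le1 stood 2.50 above the median as deposited and 2.72, 3.54 and 3.69 above it under the 3 scalings.

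Of the 10 models most like Le1, 2 were kept with Spearman's correlation, 3 with a pseudocount of 1, 8 in the 11 Williams libraries and 10 with a minimum of 1 RPKM. No paired analysis was possible because each condition has 1 library and no replicate numbers, and for the same reason no library could be left out of a comparison. Hits limit the low values: 27 to 34 in the 200-300 mg and dry seed coats and root.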

Other observations

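Legume lectin domains also occur in receptor kinases, which sense ligands at the cell surface, and the highest of these had varied profiles. The highest of 66 such models was Glyma.17G218500, at 21.4 RPKM in the dry cotyledon, 13.1 RPKM in the 200-300 mg cotyledon and 0 in the 5-6 mg cotyledon. Like Le1, it was highest in the dry and 200-300 mg cotyledons. Unlike Le1, it was also at 9.45 RPKM in the library labelled dry seed coat and 8.06 RPKM in root. Glyma.05G041300 was highest in the Williams 25-50 mg seed coat, at 9.32 RPKM, and Glyma.03G069300 in root, at 8.15 RPKM. Of the 12 measured between the 5-6 mg and 200-300 mg cotyledons, 3 were 4-fold or more higher and 3 lower, close to the 20.2% and 24.9% over all models, with a median of 1.59.

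Models with lectin-like domains of other folds, many of them enzymes or kinases by their matches, had their highest sums in the 200-300 mg seed coat and the library labelled dry seed coat. Among 211 models with mannose-binding, jacalin, chitin-binding, ricin B, galactose-binding or phloem protein domains, the sum was 1325 RPKM in the 200-300 mg seed coat and 103.7 RPKM in the cotyledon of that stage. Most of it was Glyma.02G042500, matched to a basic chitinase, at 875 RPKM in that seed coat and 1356 RPKM in the library labelled dry seed coat. Glyma.13G270100 was at 173 RPKM in the latter. Of 40 models measured in the 200-300 mg pair, 22 were 4-fold or more higher in the seed coat and 2 lower, against 19.6% and 3.52% over all models.

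Kunitz inhibitors, another class of seed protein, summed to 597 RPKM in the 200-300 mg seed coat and 64.2 RPKM in the cotyledon. The highest were Glyma.16G212400, at 377 RPKM in the library labelled dry seed coat, and Glyma.16G206300, at 331 RPKM in the W55 seed coat. Their correlations with Le1 were -0.11 and -0.14. Most Kunitz models compared had negative correlations with Le1, from 0.78 for Glyma.08G341500 down to -0.84 for Glyma.08G342000. Among oleosins, Glyma.05G004300 was at 925 RPKM in the dry cotyledon and Glyma.16G071800 at 836 RPKM in the 200-300 mg cotyledon.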
